A study of Mus musculus with 36 samples.

Results

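The fibrillar collagen genes are described here in mouse pancreatic fibroblasts that had grown in contact with tumor cells. Members were the rows of the count table whose symbol was Col1a1, Col1a2, Col3a1, Col5a1, Col5a2, Col5a3 or Col11a1, which gave 7 genes of 39017. All 7 passed the filter on low counts. The fibroblasts were of the C57BL/6 strain and had been cultured for 48 h with a GFP-carrying tumor line, from which they were separated by flow sorting on GFP, or had been cultured alone. The partner was 1 of 7 tumor sub-clones (E, H, K, M, N, T and V) or KPC1, a name that the labels do not explain. With the mono-culture this made 9 groups of 4 libraries, 36 in all. Each partner was 1 line, and the labels give neither the animal or culture behind each library nor the number of fibroblast isolates, so the p-values measure the spread between these libraries, which may be technical.

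Fibrillar collagens are the rods from which the fibers of connective tissue are built. 3 chains wind around each other into a long triple helix, which needs a glycine at regular steps along the chain, and the secreted helices pack side by side into fibrils. Type I collagen combines chains from Col1a1 and Col1a2, type III is made of Col3a1 chains alone, and both form the bulk of the fibril in soft tissue and in the dense stroma of pancreatic tumors. Type V chains (Col5a1, Col5a2, Col5a3) and the type XI chain Col11a1 are minor components that lie within the fibril, start its assembly and limit its width.

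The shared build of the family is visible in the genes themselves. The first coding exon of 54 bases in each gene that opens with a glycine codon and repeats one every 9 bases follows, taken from the GENCODE vM21 transcripts (build GRCm38) and written 5′ to 3′ on the strand of the gene, with the 6 glycine codons (GGN) in capitals.
Col1a1 exon 8, chr11:94939904-94939957, plus strand: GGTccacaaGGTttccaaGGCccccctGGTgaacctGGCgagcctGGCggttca
Col1a2 exon 8, chr6:4515481-4515534, plus strand: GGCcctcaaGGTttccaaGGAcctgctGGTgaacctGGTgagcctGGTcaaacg
Col3a1 exon 6, chr1:45325360-45325413, plus strand: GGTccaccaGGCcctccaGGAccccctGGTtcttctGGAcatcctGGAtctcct
Col5a1 exon 15, chr2:27965251-27965304, plus strand: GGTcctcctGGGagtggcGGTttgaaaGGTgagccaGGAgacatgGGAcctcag
Col5a2 exon 6, chr1:45434892-45434945, minus strand: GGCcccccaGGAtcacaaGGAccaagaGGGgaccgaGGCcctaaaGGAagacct
Col5a3 exon 15, chr9:20801068-20801121, minus strand: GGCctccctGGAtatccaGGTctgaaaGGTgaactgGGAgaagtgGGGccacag
Col11a1 exon 15, chr3:114108281-114108334, plus strand: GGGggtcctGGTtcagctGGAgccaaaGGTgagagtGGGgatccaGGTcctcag

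Exons of 54 bases numbered from 21 in Col1a1 to 31 in Col5a3 and Col11a1, and all of them followed this spacing except 1 of the 24 in Col1a2. Between the exons printed, Col1a1 and Col1a2 shared 42 of 54 bases and Col5a1 and Col5a3 shared 37, while Col5a1 and Col5a2 shared 25. The exons were the first of their kind in each gene and were not aligned by position along the helix (exon 15 in Col5a1, exon 6 in Col5a2). The first 2 bases of each glycine codon are shared by the choice of exons, so these counts do not measure how alike the whole chains are. Col3a1 (chromosome 1, 45311538 to 45349706, plus strand) and Col5a2 (45374321 to 45503282, minus strand) are neighbors whose 3′ ends face each other across 24614 bases, with no annotated gene in between. Col5a1 and Col5a3 overlap genes on the opposite strand (2810430I11Rik and Gm13372 for Col5a1, Gm26274 for Col5a3), and Col1a2, Col3a1 and Col5a2 each overlap 1 gene on their own strand (Gm43921, Gm47302 and Gm38211). The library kit marked strand, but whether counting used it is not given in the sources used here.

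Libraries held 12532122 to 21985538 counted reads. The summed level of 8 fibroblast markers was 2665 to 6427 CPM across the libraries, and Vim was its largest part in mono-culture and with KPC1. For the marker lists of this paragraph, CPM means counts scaled to library size alone. CPM of the other genes was also scaled by TMM. Single markers differed: the mean of Pdgfra was 325 CPM in mono-culture and 105 with KPC1, and that of S100a4 550 and 59.6 CPM. Dcn, Lum and Pdpn were lower with KPC1 as well, at 67.9 CPM against 329, 0.32 against 6.59 and 87.3 against 146. The rest of the list was higher with KPC1, Pdgfrb at 971 CPM against 601, Thy1 at 333 against 203 and Vim at 3477 against 2585. The part of these markers in the collagen values was not tested. Leukocyte markers stood near 0, and Ptprc and Cd3e had no count in mono-culture or with KPC1. Tumor cell markers did move with co-culture. The summed level of 8 epithelial genes, mainly the keratins Krt8, Krt18 and Krt19, was 1.03 to 1.74 CPM in mono-culture and 18.01 to 788 CPM across the co-cultured libraries. Group medians ran from 77.7 CPM with clone V to 509 CPM with clone N, and stood at 320 CPM with KPC1. Epcam, Krt7, Cldn4 and Cldn7 stayed under 1 CPM with KPC1 and with clone K. Cdh1, the remaining gene of that list, had a mean of 30.1 CPM with KPC1, 0.66 CPM with clone K and 0.27 CPM in mono-culture. The median summed level of the pericyte and smooth muscle markers was 143 CPM in mono-culture, 680 CPM with clone K and 556 CPM with clone V, and its part in the collagen values was not tested. Nearly all of that sum was Acta2 (means of 149, 664 and 567 CPM), while the pericyte marker Rgs5 was lower, at 1.88, 0.87 and 0.12 CPM. How far tumor cell RNA contributed to the collagen counts was not tested, and in bulk RNA, fewer cells of a type and less RNA per cell cannot be told apart.

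The bulk chains were among the most abundant transcripts of these cells. Col1a1 ranked between 2 and 11 among all genes in every library. Compared per length, as RPKM (reads per kilobase of gene, scaled to library size), mono-culture had 1279 ± 79.2 RPKM of Col1a1 (SD, n = 4 in all groups), 1097 ± 57.9 of Col1a2 and 970 ± 42.6 of Col3a1. The minor chains followed at 178 ± 20.7 RPKM for Col5a2, 84.4 ± 12.4 for Col5a1, 29.2 ± 5.15 for Col5a3 and 25.2 ± 1.56 for Col11a1. Together the 7 genes took a median of 2.09% of all counts in mono-culture, 2.62% with clone K and 2.58% with clone M, against 1.58% with clones H and V, 1.46% with clone T and 1.21% with KPC1. The 4 KPC1 libraries held 1.17% to 1.46%, all under the lowest mono-culture library at 2.00%.

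**Figure D1:**
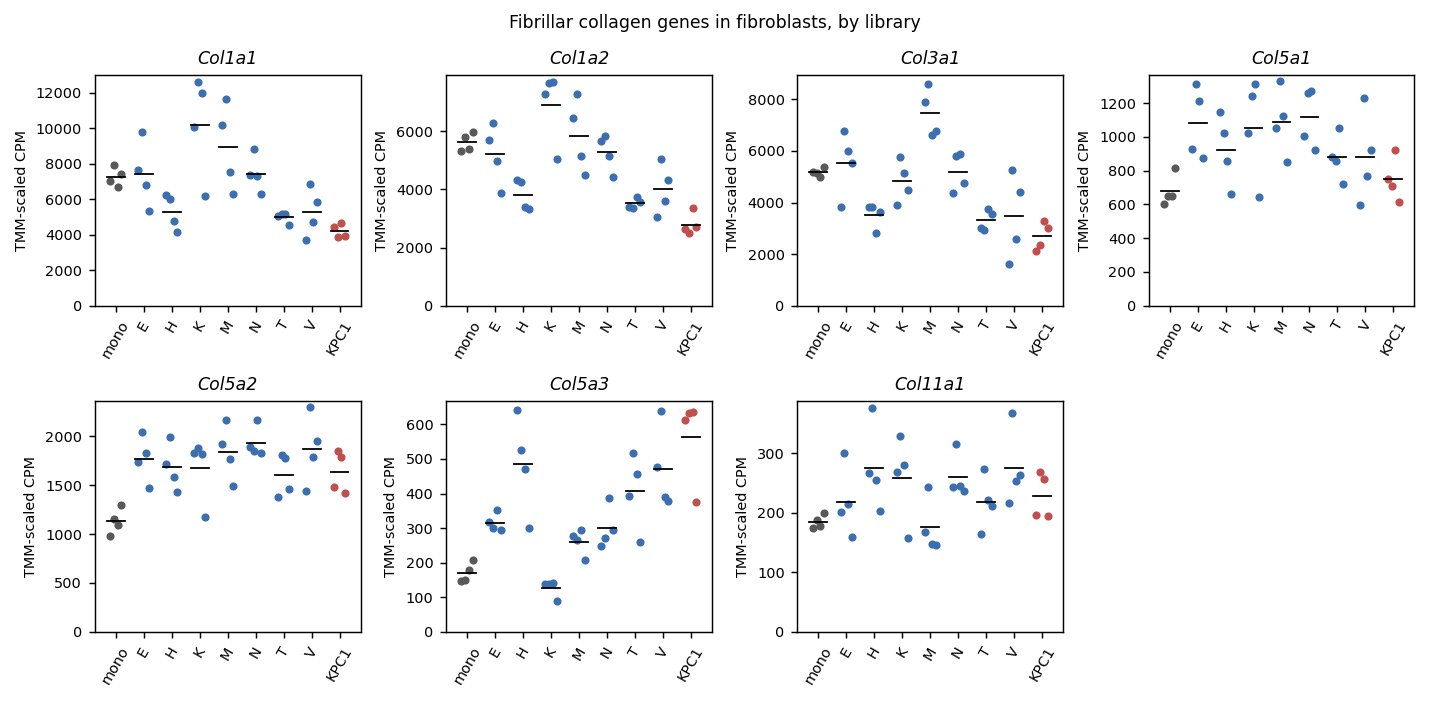
Levels of the 7 fibrillar collagen genes in each library, in CPM scaled by TMM (y axis, starting at 0), for mono-culture (gray), 7 clonal co-cultures (blue) and KPC1 (red). Points are libraries and lines are means of 4; Col1a1, Col1a2 and Col3a1 are lowest with KPC1, whereas Col5a3 is highest with KPC1 and lowest with clone K.

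Each co-culture was first compared with the fibroblasts grown alone. The family did not move as a block: the abundant chains of types I and III were lower with some partners and not called with others, whereas Col5a2 was higher with all 8 partners and Col5a3 with 7 of 8. Changes are given as log2 fold changes ± SE from edgeR's quasi-likelihood test, with p-values adjusted by Benjamini-Hochberg over all 14439 genes tested and 0.05 as the threshold. The median of all genes tested was within 0.02 of 0 in each comparison, which TMM scaling is built to bring about. With library-size scaling alone the median against mono-culture ran from −0.021 (clone M) to −0.083 (clone V).

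Of the 7 members, 2 rose with KPC1 (Col5a2, Col5a3) and 3 fell (Col1a1, Col1a2, Col3a1), where 30.5% of all genes tested passed upward and 28.5% downward. With clone T, 2 rose and 3 fell, the same members as with KPC1, in a comparison that called 25% of all genes higher and 24.7% lower. In the comparisons of clone H (27.8% of genes up, 26.4% down) and clone V (29.4% up, 28.9% down), 3 members rose (Col5a2, Col5a3, Col11a1) and 2 fell (Col1a2, Col3a1). The other 4 partners gave no lower member. Col5a1, Col5a2 and Col5a3 rose with clone E (16.5% of genes higher, 15.5% lower), with clone M (12.2% and 10.8%) and with clone N (19.7% and 19.2%). With clone K, Col5a1 and Col5a2 rose, against 10.4% of genes higher and 8.69% lower. All 8 comparisons share the same 4 mono-culture libraries. The balance of calls over all genes differed between settings. Upward calls made up 51.4% (E), 54.6% (K) and 50.6% (N) of calls in edgeR, but 40.2%, 40.4% and 39.8% with limma-trend on log2(RPKM + 1), which differs in both tool and scaling. In edgeR with library-size scaling alone they made up 43.3%, 45.4% and 41.8%.

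**Figure D2:**
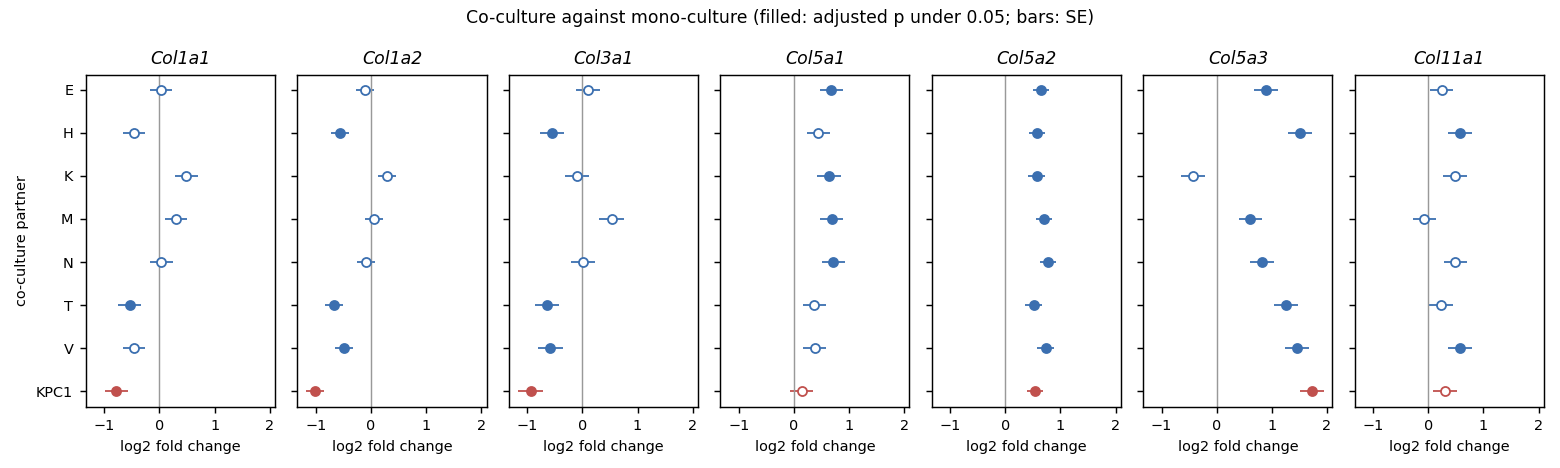
Log2 fold change (x axis) of each fibrillar collagen gene in fibroblasts co-cultured with each partner (y axis) against mono-culture. Points are edgeR estimates from 4 libraries a group, bars are SE, filled points passed an adjusted p of 0.05; Col5a2 is filled in all 8 rows and Col5a3 in all but clone K.

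Type I collagen chains came first in abundance. Col1a1, the major chain of the type I helix, was measured at 7018, 7935, 6670 and 7449 CPM in mono-culture and at 4431, 3898, 4684 and 3916 CPM with KPC1. All 4 KPC1 libraries lay below all mono-culture libraries, and the level was 1.72-fold lower (log2 −0.78 ± 0.20, edgeR adjusted p = 0.00149). Clone T gave 5028, 5192, 5190 and 4550 CPM, also without overlap (log2 −0.54 ± 0.20, edgeR adjusted p = 0.0266). Leaving out mono-culture replicate 2, mono-culture replicate 4 or clone T replicate 4 in turn ended that call.

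Clones H and V fell just short for Col1a1. Levels were 6240, 5999, 4779 and 4162 CPM with clone H (log2 −0.46 ± 0.20, edgeR adjusted p = 0.0569). With clone V they were 3707, 6862, 4701 and 5861 CPM (log2 −0.46 ± 0.20, edgeR adjusted p = 0.0519), and 1 of the 4 libraries reached into the range of mono-culture. Both differences passed with DESeq2 and 6 other settings, and each with 1 library of its clone left out. Clone K had the highest mean, 10210 ± 2886 CPM, with 3 libraries at 10082, 12586 and 11982 CPM above all mono-culture libraries and replicate 4 at 6188 CPM below them. That difference did not pass (log2 0.49 ± 0.20, edgeR adjusted p = 0.0905), although without clone K replicate 4 it did.

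Col1a2, the other type I chain, showed the clearest decrease of the family with KPC1. Levels were 5324, 5815, 5391 and 5959 CPM in mono-culture and 2622, 2494, 3348 and 2689 CPM with KPC1. The groups did not overlap, and the level was 2.02-fold lower (log2 −1.01 ± 0.16, edgeR adjusted p = 4.4e-06). It was 1.60-fold lower with clone T (3365 to 3737 CPM, adjusted p = 0.00094 by edgeR), 1.47-fold lower with clone H (3316 to 4306 CPM, adjusted p = 0.00455) and 1.41-fold lower with clone V (3034 to 5062 CPM, adjusted p = 0.0105). Each of these libraries lay below the lowest mono-culture library. With clones E, K, M and N the log2 changes were −0.11, 0.30, 0.06 and −0.09, and none was called. The call with clone V was lost without clone V replicate 1.

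Col3a1, which forms the type III helix, fell with the same partners. Mono-culture libraries lay close together at 5166, 5130, 4989 and 5386 CPM. With KPC1 they were at 2137, 2362, 3290 and 2995 CPM, 1.92-fold lower and without overlap (log2 −0.94 ± 0.22, edgeR adjusted p = 0.000611). Clone T gave 3016, 2941, 3738 and 3567 CPM (log2 −0.64 ± 0.22, edgeR adjusted p = 0.0175) and clone H gave 3825, 3827, 2799 and 3631 CPM (log2 −0.55 ± 0.22, edgeR adjusted p = 0.0360), both below every mono-culture library.

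Col3a1 was spread widely with clone V, at 1601, 5258, 2566 and 4410 CPM. The mean difference passed the test (log2 −0.58 ± 0.22, edgeR adjusted p = 0.0263), but not without clone V replicate 1 or 3 or mono-culture replicate 4. The call with clone H was lost without any 1 of the mono-culture libraries and without clone H replicate 3 or 4, and that with clone T without clone T replicate 2. Clone M stood at the other end of the order, with 7912, 8613, 6603 and 6767 CPM, all above mono-culture. Its log2 change of 0.53 ± 0.22 was not called (edgeR adjusted p = 0.0834).

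The type V chains went the other way. Col5a2 was the one member that rose with every partner, by 0.51 ± 0.15 (clone T) to 0.78 ± 0.15 (clone N) on the log2 scale, or 1.42-fold to 1.71-fold. Mono-culture libraries were at 979, 1149, 1093 and 1293 CPM, and all co-cultured libraries but clone K replicate 4 (1175 CPM) lay above them, from 1380 CPM (clone T) to 2295 CPM (clone V). Adjusted p-values from edgeR ran from 0.000121 (clone V) to 0.00662 (clone K). The neighboring gene Col3a1 was lower with 4 of these partners.

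Col5a1 supplies the most common partner chain of Col5a2. It was at 604, 647, 648 and 816 CPM in mono-culture, and rose with clone N (1006, 1262, 1272 and 922 CPM, 1.64-fold, edgeR adjusted p = 0.00691), clone E (1.60-fold, adjusted p = 0.0133), clone M (1.61-fold, adjusted p = 0.0161) and clone K (1.55-fold, adjusted p = 0.0293). With clones E, M and N all 4 libraries lay above mono-culture, and with clone K 3 of 4 did. The remaining partners gave log2 changes of 0.44 ± 0.21 (clone H), 0.38 ± 0.21 (clone V), 0.37 ± 0.21 (clone T) and 0.14 ± 0.21 (KPC1), none of which was called. The clone K call was lost when clone K replicate 2, clone K replicate 3 or any of mono-culture replicates 1 to 3 was left out, the clone M call without mono-culture replicate 1 or clone M replicate 2, and the clone E call without mono-culture replicate 1.

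Col5a3, another type V chain with a more restricted tissue distribution, had the largest changes of the family. Its level was 149, 149, 178 and 208 CPM in mono-culture and 614, 633, 636 and 374 CPM with KPC1. This was 3.298-fold higher without overlap (log2 1.72 ± 0.22, edgeR adjusted p = 1.04e-07). Clone H gave 640, 526, 471 and 301 CPM (2.83-fold, edgeR adjusted p = 1.25e-06) and clone V gave 477, 637, 389 and 379 CPM (2.75-fold, adjusted p = 1.32e-06). All libraries of both groups lay above mono-culture.

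Smaller increases of Col5a3 accompanied clone T (394, 518, 457 and 261 CPM, 2.38-fold, edgeR adjusted p = 1.91e-05), clone E (317, 301, 352 and 294 CPM, 1.85-fold, adjusted p = 0.00195), clone N (1.76-fold, adjusted p = 0.00309) and clone M (1.52-fold, adjusted p = 0.0381). The clone M call was lost when mono-culture replicate 1, 2 or 3 or clone M replicate 1, 2 or 3 was omitted, and clone M replicate 4 lay within the range of mono-culture. Clone K was the exception, with 137, 137, 141 and 90.6 CPM. All 4 of its libraries lay below all 4 of mono-culture, yet the difference was not called (log2 −0.44 ± 0.21, edgeR adjusted p = 0.162). The partners with the highest Col5a3, KPC1 and clones H, V and T, were those with the lowest Col1a1, Col1a2 and Col3a1.

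Col11a1, whose chain joins type V chains in some fibrils, was at 175, 188, 178 and 200 CPM in mono-culture. It rose with clone H (267, 377, 254 and 203 CPM, 1.49-fold, edgeR adjusted p = 0.0246) and clone V (217, 368, 254 and 263 CPM, 1.49-fold, adjusted p = 0.0226), in each case with all 4 libraries above mono-culture. Both calls were lost without mono-culture replicate 1, and each without replicate 2 of its own clone. All 4 libraries with clone N lay above mono-culture as well (237 to 315 CPM), but the change was not called (log2 0.49 ± 0.21, edgeR adjusted p = 0.0691). With the remaining partners the log2 change was between −0.07 (clone M) and 0.48 (clone K).

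The second question was whether the level of these genes depended on which sub-clone the fibroblasts had met. In one F-test over the 7 clonal co-cultures, 67.5% of all genes tested differed, and 4 of the 7 members did. Col5a3 differed most (F = 16.8, edgeR adjusted p = 1.47e-07), followed by Col1a2 (F = 9.70, adjusted p = 1.75e-05), Col1a1 (F = 8.07, adjusted p = 7.77e-05) and Col3a1 (F = 7.86, adjusted p = 9.58e-05). Col11a1 (adjusted p = 0.0746), Col5a1 (0.438) and Col5a2 (0.601) were not called. Col11a1 passed in edgeR with replicate number as a block (adjusted p = 0.0006034) and with DESeq2 (adjusted p = 0.0413). It also passed in edgeR without clone E replicate 2, clone H replicate 4, clone K replicate 4, clone M replicate 2 or clone T replicate 2 (adjusted p from 0.0203 to 0.0492). Mean Col5a2 levels among the clones ran only from 1608 ± 219 CPM (clone T) to 1931 ± 157 CPM (clone N), whereas those of Col5a3 ran from 126 ± 23.97 CPM (clone K) to 484 ± 141 CPM (clone H).

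Ordered by mean level over the 9 groups, Col1a1 ran from clone K through M, N, E and mono-culture to H, V, T and KPC1. Neighbors in that order overlapped in the range of their libraries, except mono-culture and clone H. Col1a2 had clone K first and KPC1 last, with a gap only between clone T (3365 CPM and above) and KPC1 (3348 CPM and below). For Col3a1, clone M came first and KPC1 last, with the gap between clones K and H. Col5a3 started with KPC1, H, V and T and ended with mono-culture and K, the one pair of neighbors that did not overlap. In Col5a2, only mono-culture was set apart from its neighbor, clone T, and in Col5a1 and Col11a1 all neighbors overlapped.

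KPC1 was then set against the mean of the 7 clones. Here 22.3% of genes were higher and 18.8% lower, and of the members 1 was higher and 4 were lower with KPC1. Col1a2 was 1.73-fold lower (log2 −0.79 ± 0.13, edgeR adjusted p = 2.90e-05), Col3a1 1.70-fold (log2 −0.76 ± 0.18, adjusted p = 0.00114), Col1a1 1.62-fold (log2 −0.69 ± 0.16, adjusted p = 0.00111) and Col5a1 1.33-fold (log2 −0.41 ± 0.16, adjusted p = 0.0411). Col5a3 was 1.81-fold higher (log2 0.85 ± 0.15, edgeR adjusted p = 5.40e-05). Col5a2 (log2 −0.11 ± 0.11) and Col11a1 (log2 −0.06 ± 0.16) were not called. The call for Col5a1 was lost under 12 of the single omissions.

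Ratios of 2 chains within a library, which no scaling between libraries can change, were examined next. In mono-culture the RPKM ratio of Col1a1 to Col1a2 was 1.17 ± 0.054, that of Col3a1 to Col1a1 0.760 ± 0.049, that of Col5a1 to Col5a2 0.474 ± 0.023 and that of Col5a1 to Col1a1 0.0660 ± 0.0088. The last ratio, of the minor to the bulk chain, moved most. It was 0.124 ± 0.012 with KPC1, 0.124 ± 0.014 with clone T, 0.122 ± 0.0079 with clone H and 0.117 ± 0.0069 with clone V. With these partners and with clones E and N, all 4 libraries lay above all 4 of mono-culture, by 0.67 (clone E) to 0.92 (KPC1) on the log2 scale. Clone K stayed within the range of mono-culture, at 0.0730 ± 0.0033.

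Col5a1 to Col5a2 was lower in all 4 libraries with KPC1 (0.362 ± 0.049) and with clone V (0.365 ± 0.044), and Col1a1 to Col1a2 was higher in all 4 with KPC1 (1.38 ± 0.12) and with clone M (1.36 ± 0.089). These 10 differences each reached the smallest p that an exact two-sided permutation test of 4 against 4 libraries can give, 0.0286. After Benjamini-Hochberg adjustment over the 32 tests that p became 0.0914, so none passed 0.05. A single ratio could not have passed, however large its change, since more of the 32 tests would have had to reach that smallest p. The lack of calls therefore says nothing about the size of these differences. Col3a1 to Col1a1 gave no p under 0.05. Its lowest mean was with clone K (0.533 ± 0.161) and its highest with clone M (0.924 ± 0.162).

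**Figure D3:**
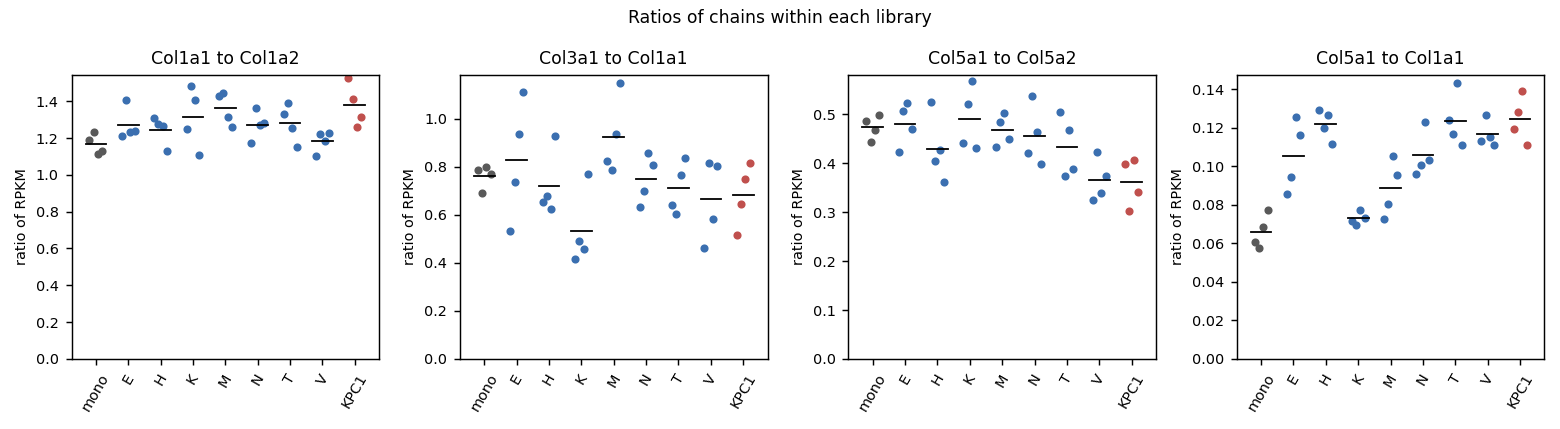
Ratio of the RPKM of 2 chains within each library (y axis, starting at 0), by group: mono-culture (gray), 7 clones (blue) and KPC1 (red). Points are libraries and lines are means of 4; Col5a1 to Col1a1 has all 4 libraries above mono-culture with E, H, N, T, V and KPC1.

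How the members varied together depended on whether groups or libraries within a group were considered. Over the 9 group means of log2 CPM, Col1a1 went with Col1a2 (r = 0.981) and Col3a1 (r = 0.881) and against Col5a3 (r = −0.885). Within groups, after the group mean was taken away, Col1a1 and Col5a3 had r = 0.459 over the 36 libraries, and Col1a1 had 0.947 with Col1a2 and 0.854 with Col5a1. Libraries of one group thus tended to be high or low for most members at once. In the co-cultures, replicate 2 lay above its group mean for all 7 genes, by 0.15 (Col5a3) to 0.40 (Col11a1) on average on the log2 scale. Replicate 4 lay below for every member except Col3a1, by up to 0.37 on average (Col5a3). These values are descriptions, since all points share depth and scaling.

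Outside the family, the 3 genes whose 9 group means went most closely with each member were found among 11695 genes with a mean of at least 2 CPM. For Col1a1 they were Adra1d (r = 0.989), Fstl1 (0.988) and Ccdc102a (0.985), and for Col1a2 they were Zfp521 (0.993), Setbp1 (0.988) and Dcn (0.985). Col3a1 had Tyro3 (0.989), Cbr1 (0.967) and 3110062M04Rik (0.966). For Col5a1 they were Serpina3h (0.968), Atp2b4 (0.960) and Amer1 (0.947), and for Col5a2 Egr3 (0.971), Inhbb (0.952) and Slit2 (0.951). Col5a3 had Bora (0.983), Slc50a1 (0.981) and Zcchc9 (0.979), and Col11a1 had Bpgm (0.969), Gm7809 (0.951) and Gpr176 (0.943). With 9 points and so many genes searched, such values describe these groups only.

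Since Col1a2 and Col3a1 fell and Col5a3 rose with KPC1, T, H and V, the 250 bases before the RefSeq start of these 3 genes are shown. They come from the promoter table of RefSeq (build GRCm38.p6), which held 5 of the 7 members. The Col1a2 window lies inside the longer GENCODE span of that gene (4504814 to 4541544), and the other 2 windows end at the GENCODE gene start. The windows are written 5′ to 3′ on the strand of the gene. Capitals mark matches on either strand to the TATA motif TATAAA, to the CCAAT box, to the GC-box motif GGGCGG, to the Smad motif CAGAC and to the AP-1 motif TGANTCA, none of which overlapped here.
Col1a2, chr6:4505368-4505617, plus strand: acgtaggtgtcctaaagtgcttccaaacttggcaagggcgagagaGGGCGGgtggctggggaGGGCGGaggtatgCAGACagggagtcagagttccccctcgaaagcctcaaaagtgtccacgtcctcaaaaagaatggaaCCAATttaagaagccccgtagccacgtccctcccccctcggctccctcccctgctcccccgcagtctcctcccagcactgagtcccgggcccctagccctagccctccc
Col3a1, chr1:45311288-45311537, plus strand: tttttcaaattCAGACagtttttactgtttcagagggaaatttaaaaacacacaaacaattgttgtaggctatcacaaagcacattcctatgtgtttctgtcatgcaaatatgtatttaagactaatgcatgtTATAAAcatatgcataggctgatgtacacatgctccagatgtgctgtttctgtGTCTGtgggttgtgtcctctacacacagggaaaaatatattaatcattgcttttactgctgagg
Col5a3, chr9:20815068-20815317, minus strand: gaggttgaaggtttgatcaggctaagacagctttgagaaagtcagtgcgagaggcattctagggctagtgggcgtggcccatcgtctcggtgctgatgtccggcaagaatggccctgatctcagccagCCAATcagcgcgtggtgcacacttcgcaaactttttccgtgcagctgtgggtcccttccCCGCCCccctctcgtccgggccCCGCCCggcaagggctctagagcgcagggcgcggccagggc

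Col1a2 held 1 CCAAT, 2 GGGCGG and 1 CAGAC in this window, Col3a1 held 1 TATAAA and 2 CAGAC, and Col5a3 held 1 CCAAT and 2 GGGCGG. Over all 32851 promoters of the table, cut to the same length, TATAAA was found in 12.4%, CCAAT in 33.8%, GGGCGG in 32.7%, CAGAC in 42.2% and TGANTCA in 6.75%. A match is a description of the letters and not a binding site.

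The enzymes and partners that turn chains into fibrils were read from 9 lists with 84 genes. All list counts stand beside the shares of all genes tested, 30.5% higher and 28.5% lower with KPC1 and 10.4% and 8.69% with clone K. Like all genes tested, the listed genes did not move in one direction. Of the 16 tested genes for chain modification and folding, 6 were higher and 3 lower with KPC1 and 1 was higher with clone K. P4ha3, a subunit of the prolyl hydroxylase that stabilizes the helix, rose with all 8 partners, from 16.4 ± 0.58 CPM in mono-culture to 34.5 ± 6.02 with KPC1 (log2 1.07 ± 0.14, edgeR adjusted p = 1.67e-07) and 59.5 ± 13.7 with clone K. Crtap, part of the prolyl 3-hydroxylase complex, fell from 105 ± 7.06 to 66.9 ± 2.30 CPM with KPC1 (log2 −0.65 ± 0.13, edgeR adjusted p = 5.78e-05). Leprel1 (P3h2), a prolyl 3-hydroxylase, had the lowest value of the list with clone K (log2 −0.38 ± 0.28, not called).

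Of the 7 export genes, 3 were higher and 1 was lower with KPC1. Klhl12, an adaptor of the ligase that enlarges transport vesicles for procollagen, rose (log2 0.62 ± 0.11, edgeR adjusted p = 1.63e-05). Sec24d, a coat protein of those vesicles, fell (log2 −0.44 ± 0.10, adjusted p = 0.000535 by edgeR). With clone K 1 was higher, Mia2, named here after its values were seen, which had no count in mono-culture and 0.34 ± 0.26 CPM with clone K. Klhl12 (log2 0.06) and the coat protein gene Sec13 (log2 −0.07) were not called there.

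Of 6 tested genes for propeptide removal, 3 were higher and 1 lower with KPC1 and 3 were higher with clone K. Of 5 for crosslinking, 2 were higher and 2 lower with KPC1 and 2 were higher with clone K. Tll1, a relative of the protease that trims the C-terminal propeptide, rose with all 8 partners, from 8.11 ± 0.99 CPM to 29.7 ± 3.78 with KPC1 (log2 1.88 ± 0.25, edgeR adjusted p = 2.06e-07) and 35.8 ± 9.03 with clone K. Pcolce, which speeds that cleavage, fell from 1146 ± 48.9 to 429 ± 61.9 CPM with KPC1 (log2 −1.42 ± 0.16, edgeR adjusted p = 1.43e-08) and stood at a log2 change of −0.08 with clone K, not called. Adamts14, an N-propeptide protease, stood at a log2 change of −0.43 ± 0.20 with clone K, not called. Lox, which crosslinks fibrils, had 2100 ± 325 CPM in mono-culture. It fell to 553 ± 157 CPM with KPC1 (log2 −1.92 ± 0.29, edgeR adjusted p = 1.88e-06) and also with clones H, T and V, but rose to 4407 ± 844 CPM with clone K (log2 1.07 ± 0.29, edgeR adjusted p = 0.00758). Loxl3 rose with all 8 partners, by 0.42 (clone K) to 1.17 (clone H) on the log2 scale, and Loxl2 was called with none.

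Among the 14 small leucine-rich proteoglycans and other fibril partners, 4 were higher and 9 lower with KPC1, with a median log2 change of −2.19. With clone K 6 were higher and 2 lower, with a median of 0.73. Dpt, dermatopontin, fell with every partner, from 166 ± 45.8 CPM to 3.20 ± 1.45 with KPC1 and 21.4 ± 8.72 with clone K. Aspn, asporin, rose with every partner, from 17.4 ± 3.26 CPM to 87.0 ± 29.2 with KPC1 and 75.3 ± 14.1 with clone K. Of the 5 fibril-associated collagens tested, 1 was higher with KPC1 (Col20a1, log2 1.32 ± 0.49, edgeR adjusted p = 0.0211) and 1 lower (Col16a1, named after its values were seen, log2 −0.55 ± 0.16, adjusted p = 0.00397). Col14a1 had the lowest value (log2 −0.79 ± 0.37), not called. Col12a1, which decorates the fibril surface, rose from 162 ± 36.2 to 817 ± 373 CPM with clone K (log2 2.33 ± 0.37, edgeR adjusted p = 3.56e-05), while Col16a1 was at 0.08 there, not called. The other fibrillar collagens outside the members were low. Col27a1 fell from 9.89 ± 2.99 to 3.53 ± 0.55 CPM and Col11a2 from 4.06 ± 1.001 to 2.16 ± 0.37 CPM with KPC1, and neither was called with clone K.

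Receptors and proteases completed the lists. Of 8 tested receptor and uptake genes, 2 were higher and 3 lower with KPC1. Itga2, a collagen-binding integrin chain that epithelial cells also carry, went from 0.15 ± 0.16 to 13.3 ± 10.6 CPM with KPC1 (log2 6.28 ± 0.87, edgeR adjusted p = 4.69e-07). The epithelial markers moved in the same libraries, and their part in this value was not tested. Itga10 fell with KPC1 (log2 −1.79 ± 0.31, edgeR adjusted p = 1.22e-05). Itga11, another collagen-binding chain, rose with clone K from 22.4 ± 5.01 to 62.7 ± 22.8 CPM (log2 1.48 ± 0.31, edgeR adjusted p = 0.000935), while the uptake receptor gene Mrc2 was not called there (log2 −0.33 ± 0.18). Of 8 tested genes for cleavage and its inhibitors, 3 were higher and 3 lower with KPC1 and 2 and 2 with clone K. Fap, a fibroblast activation marker that cleaves collagen fragments, rose with every partner, from 1.08 ± 0.39 CPM to 54.5 ± 11.7 with KPC1 and 23.5 ± 6.92 with clone K. Mmp2, a gelatinase, fell with every partner, by 0.74 (clone E) to 1.28 (KPC1) on the log2 scale.

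**Figure D4:**
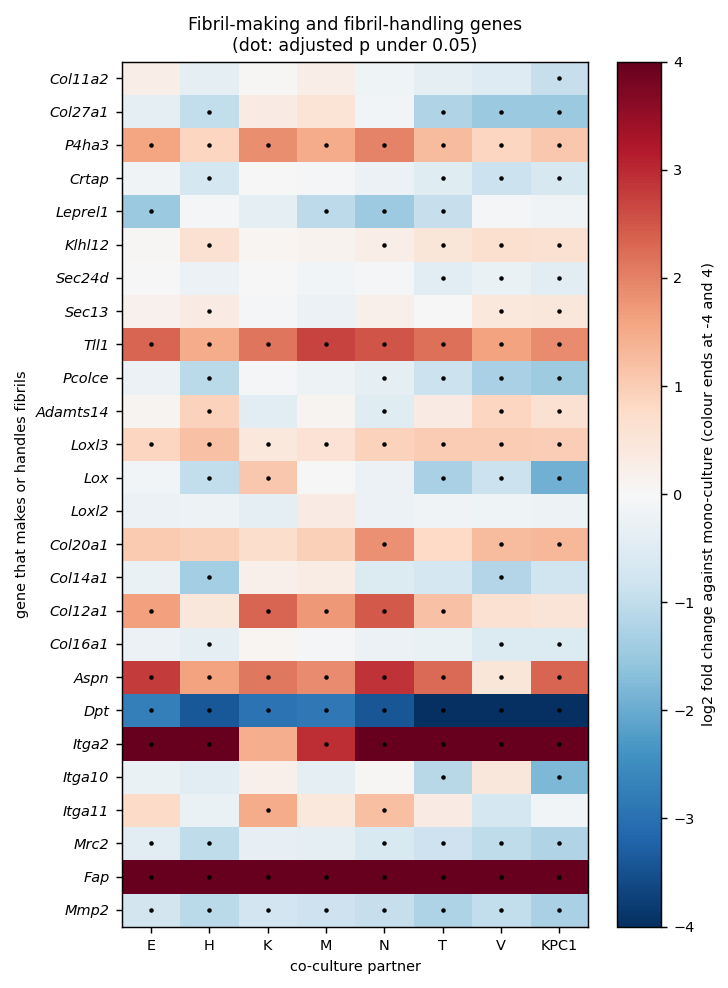
Log2 fold change against mono-culture (color, ends at −4 and 4) of the named genes that make, bind or cleave fibrils (rows, in the order of the lists) for the 8 co-culture partners (columns). Dots mark an adjusted p under 0.05; Fap, Tll1, P4ha3, Loxl3 and Aspn are higher and Dpt and Mmp2 lower in all 8 columns, while Lox is higher with K and lower with H, T, V and KPC1.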

How the data were processed

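Poly(A) libraries, strand specific, were made from 200 ng of RNA with 14 cycles and read as 76 bp paired ends. Unscaled whole counts of reads for each gene and RPKM values (counts per kilobase, scaled to library size) were deposited by the authors. The count-to-RPKM relation varied between 0.9997 and 1.0002 of its median, so RPKM carried no scaling beyond library size. The submitters' processing notes name mm10, STAR, featureCounts and edgeR. The annotation and strand setting are not given in the sources used here.

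Counts of 36 libraries were fitted with edgeR 4.0.16 in R 4.3.3 (TMM, filterByExpr, robust glmQLFit, 1 coefficient per group). Standard errors came from the fold change and F, log2 CPM used a prior count of 1, and self-tests ran on simulated counts. Depth was 12532122 to 21985538 counts, so counting error was small for the members. Intervals from the counts alone would cover counting error only, whereas the SE from the fit also holds the spread between libraries. Alternatives used DESeq2 1.42.0, limma 3.58.1, other scalings and filters, a replicate block and single omissions. Libraries of a group differed beyond sampling noise (chi-square per degree of freedom 5.84 to 63.2 over 54 pairs).

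Members and lists were chosen with earlier results of these data known. Named genes were all members, per list the highest and lowest log2 fold change (mean of at least 2 CPM) for KPC1 and for clone K, and the 3 most alike by Pearson correlation. P3h1 to P3h4 were matched as Lepre1 and Leprel1, Leprel2 and Leprel4.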

Additional observations from a re-analysis of the deposited data

Results flagged for a closer look

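Among the 99 groups of 4 values examined for the members and their ratios, 6 had 1 library set apart by Dixon's criterion at the 95% level, where chance sets apart about 1 in 20. Clone K replicate 4 was the lowest of its group for Col1a2 (5028 CPM against 7283 to 7691), Col5a2 (1175 against 1821 to 1874) and Col5a3 (90.6 against 137 to 141). Its epithelial marker sum was 318 CPM, the highest of the 4 clone K libraries, and its part in these values was not tested. KPC1 replicate 4 was lowest for Col5a3 (374 CPM against 614 to 636), and clone N replicate 2 was highest for Col11a1 (315 CPM against 237 to 246). Clone E replicate 2 had the highest log2 ratio of Col1a1 to Col1a2, at 0.64 against 0.42 to 0.45.

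Between the clonal co-cultures, 67.5% of all genes tested differed by edgeR's F-test. The members among them were Col1a1 (adjusted p = 7.77e-05), Col1a2 (1.75e-05), Col3a1 (9.58e-05) and Col5a3 (1.47e-07). Against the mean of the clones, 22.3% of all genes tested were higher with KPC1 and 18.8% lower. The members called there were Col1a1 (log2 −0.69), Col1a2 (−0.79), Col3a1 (−0.76), Col5a1 (−0.41) and Col5a3 (0.85).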

How the results depend on the processing

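Of the 623 log2 fold changes of members recomputed under another tool, scaling, filter, pseudocount or fit, 579 kept direction and side of the threshold, 23 became called, 9 lost their call and 12 changed sign. Those 12 were near 0 and called in neither fit: Col1a1 with clone E (-0.0361 without TMM, -0.0072 with the replicate block, -0.0592 and -0.0593 with limma-trend on log2(RPKM + 1) and log2(RPKM + 0.1)), Col1a1 with clone N (-0.0277 without TMM, -0.0358 and -0.0359 with the same RPKM fits) and Col3a1 with clone N (-0.057 without TMM, -0.0066 with at least 10 counts in every library, -0.0038 with the replicate block, -0.065 and -0.0651 with the RPKM fits). Of 672 with 1 library left out, 606 were the same, 44 lost their call, 7 became called and 15 changed sign, in Col1a1 with clone E (−0.13 to 0.15) and N (-0.0513 to 0.11), Col1a2 with E (−0.20 to 0.0002) and M (-0.0659 to 0.16), Col3a1 with E (-0.0069 to 0.25) and N (-0.0504 to 0.0612), Col11a1 with M (-0.27 to 0.0055) and Col11a1 for KPC1 against clones (-0.13 to 0.0189). Counts of members called under single omissions were 3 to 6 with clone H (3 without mono-culture replicate 1), 1 to 4 with clone K (4 without clone K replicate 4, 1 without clone K replicate 2 or 3 or mono-culture replicate 1, 2 or 3) and 1 to 3 with clone M (1 without mono-culture replicate 1 or clone M replicate 2). Deviations of co-cultures correlated above 0.1 in 63 of 112 pairs with the same number (median r = 0.14) and in 89 of 336 with different numbers (median r = -0.04). Since not every same-numbered pair passed, and 5 of 32 did between co-cultures and mono-culture, the numbers were not taken as pairing the samples. With the replicate block, Col11a1 differed among clones (adjusted p = 0.0006034 by edgeR), 4 members were called with clone K in place of 2, and no other count moved by over 1.5 times. Counts over all genes stayed within 1.5 times under every setting run. Chain ratios gave 0 calls of 32 with single omissions, where again a single ratio could not pass, and with numbers as pairs, where 4 pairs cannot reach 0.05. Ratios of RPKM differ from those of counts only by fixed gene lengths, so their 0 calls of 32 could not differ from the main result. By RPKM, 5 of 7 members kept both their highest and lowest group. The cause of these differences was not tested.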
